A study of Mus musculus with 12 samples.

Results

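The genes described here encode the enzymes and transporters that take up glucose, split it to pyruvate and lactate, or pass it through the pentose phosphate pathway, together with the hypoxia factor Hif1a and genes known as its targets. They were taken as the rows of a gene count table whose symbol was one of 39 listed symbols, which gave 40 of 54532 rows. Aldoa had 2 rows, and the second (ENSMUSG00000114515), with under 1 CPM in every library (CPM, a gene's counts relative to all counts of its library), was not tested. The other 39 rows were among the 14293 genes tested, so every symbol had a tested row. RNA came from splenic dendritic cells (DCs), antigen-presenting cells selected with anti-CD11c beads after B, T and NK cells had been removed by their surface markers. The mice were wild type (WT, labelled WT C57BL6) or carried the label SLC29A3-/- C57BL6 (KO here), Slc29a3 encoding the endolysosomal nucleoside transporter ENT3. Cells were left untreated or were treated with attenuated Salmonella typhimurium labelled STmDfla at a multiplicity of infection of 10. The series design gives a 30 min pulse followed by a wash and a 3 h chase, while the treatment protocol in the labels gives 3 h with bacteria. Which part of Slc29a3 was deleted, the age and sex of the mice, and how many mice gave each library is not stated in the labels. Each of the 4 groups held 3 libraries, and the labels do not say which came from separate mice. The sex-linked transcripts given below place number 1 of each group in other mice than numbers 2 and 3, while nothing places numbers 2 and 3 in separate mice, so the p-values cover a spread that may be technical in part.

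In DCs, contact with bacterial products is known to raise glucose uptake and glycolysis within minutes to hours, through kinases such as TBK1, IKKε and AKT that act on hexokinase II, and later through the factor HIF-1. Glycolysis gives ATP and the citrate and glycerol backbones used for membrane growth. The pentose phosphate pathway leaves glycolysis at glucose phosphate and gives NADPH and ribose. HIF-1α is made and destroyed continuously, because prolyl hydroxylases (Egln1 to Egln3 genes) mark it for the VHL ubiquitin ligase when oxygen is present.

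Libraries held 15693172 to 24074596 counts. Markers of both DC classes were detected in every group, with a summed level of 11 cDC1 markers of 951 to 1817 CPM and of 10 cDC2 markers of 544 to 1197 CPM over the 12 libraries. The first principal component, with 39.4% of the variance, separated WT from KO libraries, and the second, with 28%, separated treated from untreated ones. Within KO, number 1 of each treatment stood nearer to WT (32.4 and 26.2) than numbers 2 and 3 (58.7 to 67). Number 1 of every group carried Y-linked transcripts and almost no Xist, whereas numbers 2 and 3 carried Xist and no Y-linked counts, and results without the libraries numbered 1 are given below. Slc29a3 itself was at 110.2, 99.2 and 104 CPM in untreated WT and 94.0, 74.0 and 63.5 CPM in untreated KO libraries, and at 197, 233 and 207 CPM in treated WT and 147, 191 and 124 CPM in treated KO libraries. The difference between genotypes did not pass the test untreated (log2 -0.44, SE 0.17, adjusted p = 0.111) or treated (log2 -0.46, SE 0.17, adjusted p = 0.0806), and with the library number as a term across all groups the treated difference passed (adjusted p = 0.0383) and the untreated one did not (adjusted p = 0.0542). A count over the whole gene does not check a deletion of a part of it, so the genotypes rest on the labels.

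Promoters are shown for the members that passed the test in both genotypes with the largest mean rise. Sequence farther from the start sites was not searched. The rule picked Hk2, Ndrg1, Slc2a6 and Pfkfb3, of which Ndrg1 had no entry in the RefSeq table used, while Pfkfb3 had 2 entries with different start sites. Each window runs from 250 bases before to 50 bases after the start (RefSeq, GRCm38.p6), written 5′ to 3′ on the gene's own strand. Capitals mark ACGTG or GCGTG, the core of the hypoxia response element, read on either strand, so that CACGT and CACGC are the same cores on the other strand.
Hk2 promoter, chr6:82774405-82774704, minus strand: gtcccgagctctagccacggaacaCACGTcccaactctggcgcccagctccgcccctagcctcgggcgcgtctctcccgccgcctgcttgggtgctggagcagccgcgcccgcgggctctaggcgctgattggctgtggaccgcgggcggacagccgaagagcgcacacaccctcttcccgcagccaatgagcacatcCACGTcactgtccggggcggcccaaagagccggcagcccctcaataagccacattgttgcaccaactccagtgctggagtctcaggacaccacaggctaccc
Slc2a6 promoter, chr2:27027949-27028248, minus strand: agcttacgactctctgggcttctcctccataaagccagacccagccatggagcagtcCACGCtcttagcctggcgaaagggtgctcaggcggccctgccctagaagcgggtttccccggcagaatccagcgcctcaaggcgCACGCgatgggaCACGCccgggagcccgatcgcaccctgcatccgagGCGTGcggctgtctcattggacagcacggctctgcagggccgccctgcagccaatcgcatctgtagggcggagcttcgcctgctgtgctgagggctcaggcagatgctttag
Pfkfb3 promoter, chr2:11502041-11502340, minus strand: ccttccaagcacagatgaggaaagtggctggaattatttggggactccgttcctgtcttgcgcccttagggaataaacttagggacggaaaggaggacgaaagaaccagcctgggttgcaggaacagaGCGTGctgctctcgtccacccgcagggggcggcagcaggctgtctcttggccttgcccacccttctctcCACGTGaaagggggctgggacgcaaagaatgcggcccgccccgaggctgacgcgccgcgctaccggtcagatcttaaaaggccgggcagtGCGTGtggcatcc
Pfkfb3 promoter, chr2:11553880-11554179, minus strand: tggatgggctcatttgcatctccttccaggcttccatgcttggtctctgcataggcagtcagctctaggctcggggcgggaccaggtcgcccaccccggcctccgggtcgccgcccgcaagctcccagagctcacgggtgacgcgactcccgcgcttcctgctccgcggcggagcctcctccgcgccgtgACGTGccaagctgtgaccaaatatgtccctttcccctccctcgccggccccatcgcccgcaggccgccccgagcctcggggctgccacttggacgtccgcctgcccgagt
The Hk2 window held 2 ACGTG cores, and the same core stood in both Pfkfb3 windows. The Slc2a6 window held 4 GCGTG cores and 1 match to the kappaB pattern (GGGA, then 4 bases of any kind, then CC, read on either strand). The Pfkfb3 window at the more 3′ start held 2 GCGTG cores and a CACGTG palindrome, which was counted on both strands as 2 ACGTG matches, and the other Pfkfb3 window held 1 ACGTG core. Of 32851 promoters of the same length, 43.8% held ACGTG or GCGTG, 19.6% held ACGTG, 32.4% held GCGTG and 20.7% held the kappaB pattern. Such matches are letters in a window and not evidence of binding.

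The enzymes of the pathway differed widely in level. On a scale of CPM per kilobase of gene length, the members with the highest means in untreated WT cells were Aldoa (aldolase A, 323 ± 66.9, mean ± SD, n = 3), Taldo1 (transaldolase, 271 ± 53.7), Pkm (pyruvate kinase, 162 ± 28.0), Pgk1 (phosphoglycerate kinase, 111 ± 17.2) and Pfkfb3 (109.9 ± 14.8). Pgk1 and Pfkfb3 did not differ beyond their spread. Gapdh, the glyceraldehyde phosphate dehydrogenase often used as a constant reference, stood at 3.84 ± 0.489 CPM per kilobase, far below its neighbours in the pathway. Its transcript shares 82.5% of its 50-base windows with transcripts of 222 other annotated genes, nearly all pseudogenes, and the same share was 72.2% for Eno1, 68.0% for Pgk1, 62.4% for Bnip3, 41.5% for Pgam1, 36.6% for Higd1a and 34.4% for Pkm. Counting may therefore have split or dropped reads of these genes, and their values are uncertain. Hk2, Hk3, Slc2a6, Slc16a1, Pdk1, Pfkm, Egln3, Pgd and Tkt were among 15 members that shared no window.

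**Figure D1:**
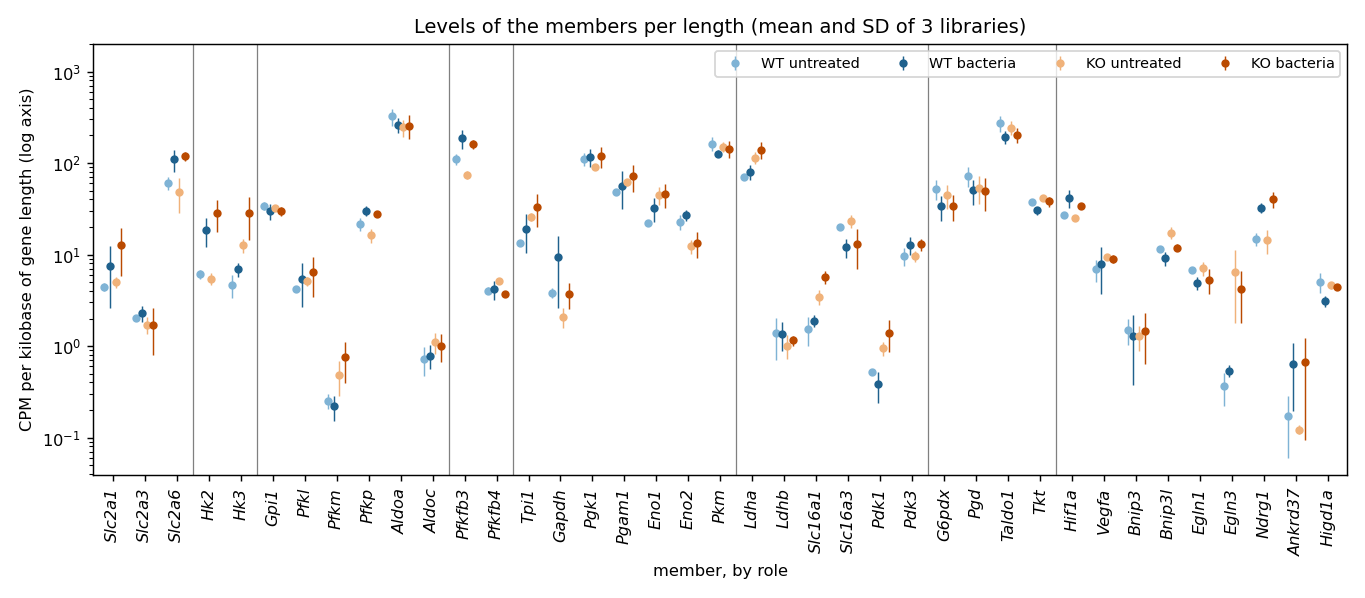
Level of each of the 39 tested genes, in CPM per kilobase of gene length on a log axis, with points for group means and bars for the SD of 3 libraries, coloured by the 4 groups. Aldoa, Taldo1 and Pkm stand at the top and Ankrd37, Pfkm and Egln3 in WT near the bottom.

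After bacteria, 6 members rose in both genotypes, among them Slc2a6, Hk2, Pfkp and Pfkfb3. The WT calls of Slc2a6 and Pfkp and the KO call of Hif1a were lost under 12, 14 and 11 alternatives and kept under 11, 9 and 12. In WT cells 7 of 39 rose and 1 fell, which is 20.5% of the members, while 18.7% of all tested genes were called (10.6% up and 8.07% down; edgeR quasi-likelihood test, Benjamini-Hochberg adjusted p below 0.05). In KO cells 9 rose and 2 fell, 28.2% of the members beside 23.0% of all tested genes (11.6% up and 11.5% down). Over both directions together these shares lie near those of all genes. With this scaling the calls of members leaned more to rises than those of all genes, in both genotypes, and this lean was not tested. The median change of the members was 0.19 in WT and 0.20 in KO on the log2 scale beside -0.04 and -0.07 for all tested genes. With Hif1a and Ndrg1, the shared genes make 6 of the 7 that rose in WT and 6 of the 9 in KO. Treated and untreated libraries did not overlap for 12 members in WT (8 above and 4 below, beside 38.9%, 19.0% and 19.9% of all tested genes) and 14 in KO (11 above and 3 below, beside 40.3%, 17.7% and 22.6%). With library totals as the only scaling, the median over all genes was -0.35 in WT and -0.38 in KO. The split was then 3 up and 9 down in WT, beside 799 up and 4225 down of 14293 tested genes. In KO it was 6 up and 7 down, beside 1030 up and 4691 down. With upper-quartile factors that median was -0.11 in WT. The split there was 4 up and 4 down, beside 1241 up and 1607 down of all tested genes. Without the libraries numbered 1, 5 members rose and 5 fell in WT, beside 1412 and 874 of 14605 tested genes. In KO 8 rose and 1 fell, beside 1619 and 1307.

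Same-numbered libraries of a genotype deviated together, so the fit was repeated with the number as a block within genotype. With this block 8 members rose and 9 fell in WT (31.9% of all tested genes were called, 16.6% up and 15.3% down), and 11 rose and 6 fell in KO (34.9% of all genes, 16.6% up and 18.3% down). A change that passed with the block alone is named as such below.

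**Figure D2:**
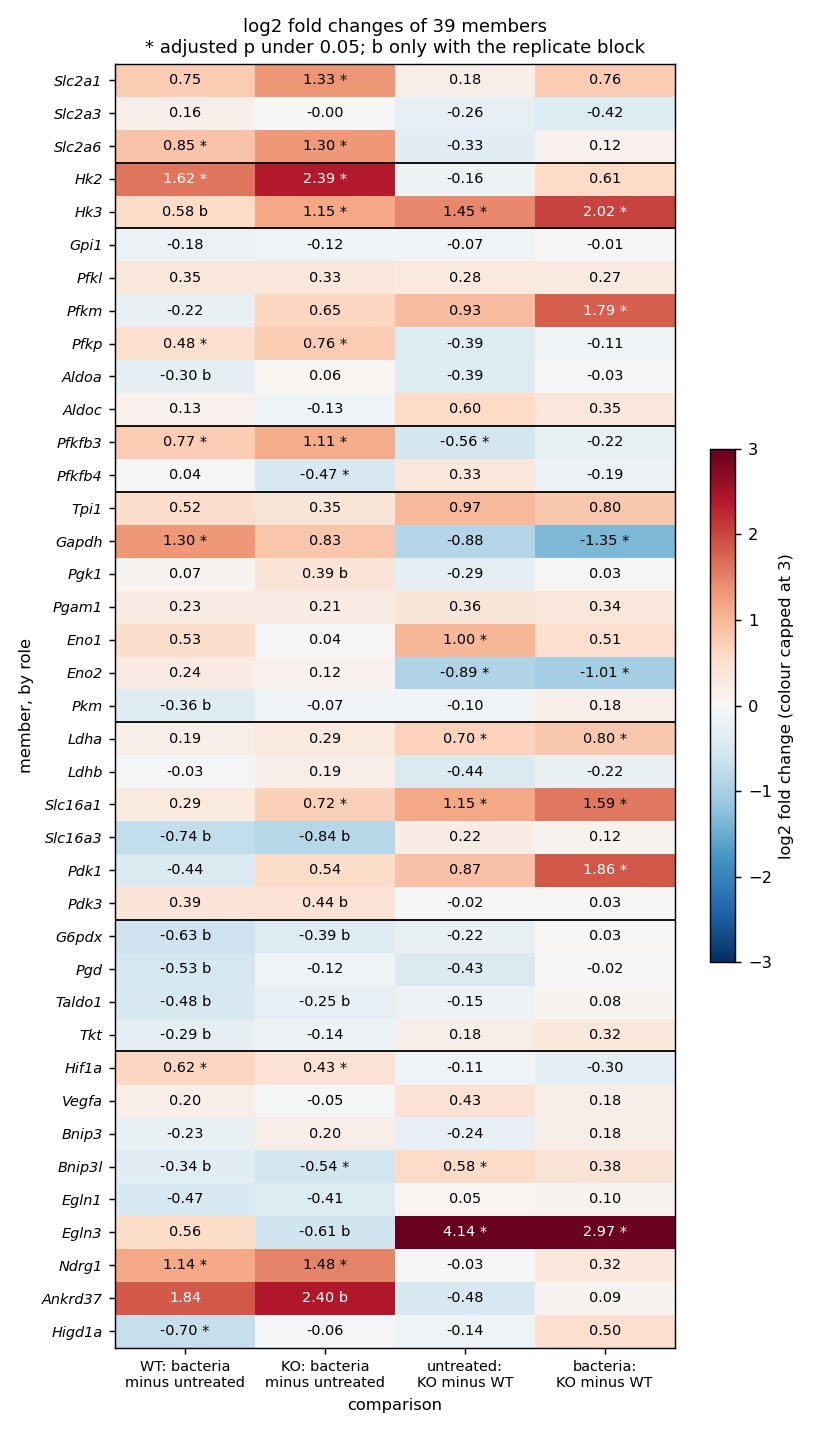
Log2 fold changes of the 39 tested genes in the response to bacteria in WT and KO cells and in the KO minus WT difference untreated and treated, ordered by role, with a star at calls with adjusted p below 0.05 and a b at those that passed with the replicate block alone. Hk2 shows the strongest starred rise in both responses, and Egln3 the strongest genotype difference.

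Of 3 glucose transporters and 2 hexokinases, Slc2a6 and Hk2 rose in both genotypes, and Slc2a1 and Hk3 passed in KO alone. Hk2 encodes hexokinase II, the inducible enzyme that traps glucose in the cell as glucose phosphate. Values are listed in the order of libraries 1, 2 and 3 throughout. Hk2 stood at 32.0, 39.1 and 37.6 CPM in untreated and 91.3, 156 and 86.4 CPM in treated WT cells, and at 29.9, 29.5 and 37.8 CPM in untreated and 95.6, 214 and 199 CPM in treated KO cells. In both genotypes every treated library was above every untreated one, and number 2 was the highest treated library in each. The gene rose 3.07-fold in WT (log2 1.62, SE 0.29, adjusted p = 0.00283) and 5.23-fold in KO (log2 2.39, SE 0.30, adjusted p = 0.000157, edgeR), and both calls held under every alternative run. Hk3, another hexokinase of myeloid cells, stood at 17.1, 21.7 and 12.3 CPM in untreated and 27.4, 28.9 and 20.3 CPM in treated WT cells, and at 39.8, 44.3 and 55.9 CPM in untreated and 61.9, 88.7 and 161 CPM in treated KO cells. It rose in KO (log2 1.15, SE 0.31, adjusted p = 0.0185), and there untreated and treated libraries did not overlap, while in WT the log2 difference was 0.58 (adjusted p = 0.22), which passed with the block alone (adjusted p = 0.00737). The KO call was lost without KO untreated 1, KO untreated 2 or KO treated 3 (adjusted p = 0.0601, 0.0647 and 0.0709).

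Slc2a6 encodes GLUT6, a glucose transporter family member found largely on intracellular membranes. It stood at 233, 182 and 171 CPM in untreated and 439, 252 and 364 CPM in treated WT cells, and at 229, 128 and 110.0 CPM in untreated and 431, 339.6 and 376 CPM in treated KO cells. The treated libraries lay above the untreated ones in both genotypes, by less in WT pair 2 than in the others. Slc2a6 rose 1.80-fold in WT (log2 0.85, SE 0.26, adjusted p = 0.0433) and 2.46-fold in KO (log2 1.30, SE 0.27, adjusted p = 0.00457). Slc2a1, the widely expressed plasma membrane transporter GLUT1, stood at 16.0, 17.0 and 13.7 CPM in untreated and 17.0, 45.9 and 15.8 CPM in treated WT cells, and at 20.3, 16.6 and 15.9 CPM in untreated and 27.6, 71.7 and 33.9 CPM in treated KO cells. Number 2 was far above the other treated libraries in both genotypes, and the WT groups overlapped. Slc2a1 rose in KO (log2 1.33, SE 0.41, adjusted p = 0.0364), a call lost with the block (adjusted p = 0.0614), and the WT difference did not pass (log2 0.75, SE 0.41, adjusted p = 0.226). Slc2a3, the high-affinity transporter GLUT3, lay between 5.33 and 20.3 CPM over the 12 libraries and passed in no comparison. The WT call of Slc2a6 held only without WT treated 2, KO untreated 1 or KO untreated 3 and was lost in the other 9 fits that left out 1 library (adjusted p up to 0.163). The KO call of Slc2a1 was lost without any of the untreated libraries of either genotype or without KO treated 2 (adjusted p up to 0.179).

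**Figure D3:**
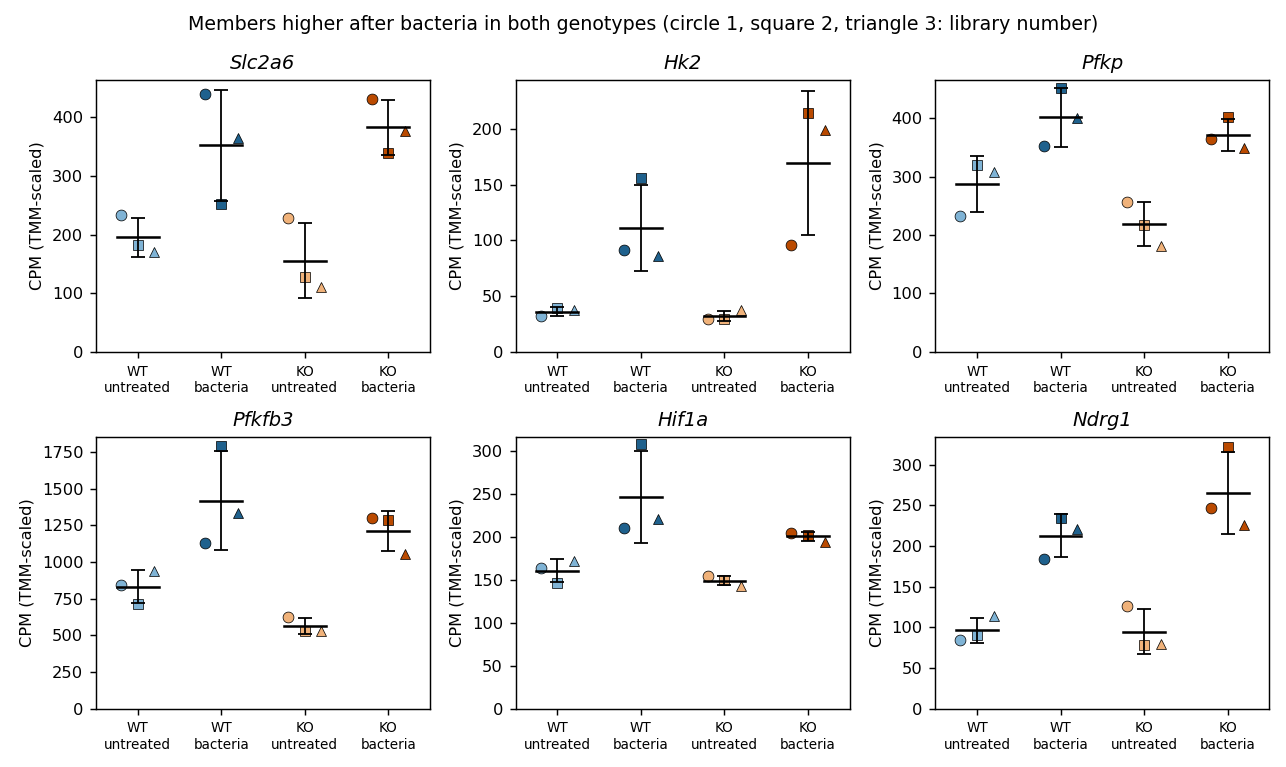
CPM in each library, on axes from 0, of the members that rose in both genotypes, by group, with a point per library (its shape gives the number), a line at the group mean and a bar for the SD. Treated libraries lie above untreated ones of the same genotype, with number 2 the highest treated library for Hk2 in both genotypes.

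Phosphofructokinase commits glucose to glycolysis, and Pfkfb3 makes the bisphosphate that activates it. Pfkfb3 was among the most highly expressed members, at 842, 713 and 937 CPM in untreated and 1129, 1790.1 and 1332 CPM in treated WT cells, and at 628, 530.4 and 531 CPM in untreated and 1301, 1283 and 1056 CPM in treated KO cells. Treated libraries did not overlap untreated ones, and untreated KO libraries lay below all untreated WT ones. Pfkfb3 rose 1.71-fold in WT (log2 0.77, SE 0.17, adjusted p = 0.00816) and 2.15-fold in KO (log2 1.11, SE 0.17, adjusted p = 0.000619), and the WT call was lost without WT untreated 2 alone (adjusted p = 0.0576). Pfkp, the platelet-type phosphofructokinase subunit, stood at 233, 320.4 and 308 CPM in untreated and 352, 452 and 400.1 CPM in treated WT cells, and at 257, 218 and 181 CPM in untreated and 365, 401 and 349 CPM in treated KO cells. Its groups did not overlap in either genotype, and it rose by log2 0.48 in WT (SE 0.15, adjusted p = 0.0471) and 0.76 in KO (SE 0.16, adjusted p = 0.00388). The KO call of Pfkp held under every alternative run, and the WT call held only without WT treated 1 or KO untreated 1 (adjusted p up to 0.2 in the other 10 fits). Pfkfb4, a relative of Pfkfb3, moved the other way in KO. It stood at 18.7, 18.8 and 21.7 CPM in untreated and 24.9, 15.4 and 20.7 CPM in treated WT cells, and at 23.8, 25.1 and 25.5 CPM in untreated and 18.8, 17.7 and 17.2 CPM in treated KO cells, so that the 3 treated KO libraries lay below the 3 untreated ones while the WT groups overlapped. The fall in KO (log2 -0.47, SE 0.16, adjusted p = 0.0481) held only without WT treated 1 or WT treated 2, and reached an adjusted p of 0.134 in the other fits that left out 1 library.

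The other upper glycolysis members gave no call without the block. Gpi1 (glucose phosphate isomerase), Pfkl and Pfkm (the liver and muscle phosphofructokinase subunits), Aldoa and Aldoc differed in WT by log2 -0.30 to 0.35 and in KO by -0.13 to 0.65, and none passed. Aldoa fell in WT with the block alone (log2 -0.30, adjusted p with the block = 0.0255), from 725, 988 and 1106 CPM to 609, 788 and 894 CPM.

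Among the 7 enzymes of lower glycolysis, only Gapdh passed, and only in WT. Gapdh stood at 13.5, 17.1 and 17.0 CPM in untreated and 18.6, 27.2 and 70.7 CPM in treated WT cells, and at 6.80, 10.8 and 8.25 CPM in untreated and 15.3, 20.1 and 10.4 CPM in treated KO cells. The value of 70.7 CPM in WT treated 3 was apart from all other libraries. The WT rise (log2 1.30, SE 0.41, adjusted p = 0.0468) was lost without WT treated 3 (adjusted p = 0.218), and it held only without WT treated 1, WT treated 2 or KO treated 2. Pkm, the pyruvate kinase gene, stood at 652, 869 and 914 CPM in untreated and 568, 663 and 666 CPM in treated WT cells, and at 646, 838 and 780.2 CPM in untreated and 564, 862 and 729 CPM in treated KO cells. It passed in WT with the block alone, as a fall (log2 -0.35, adjusted p with the block = 0.011), and the 3 pairs all moved down. Pgk1 rose in KO with the block alone (log2 0.35, adjusted p with the block = 0.0365). Tpi1 (triosephosphate isomerase), Pgam1 (phosphoglycerate mutase), Eno1 and Eno2 (the ubiquitous and the neuronal-type enolase) passed in neither response, with log2 differences between 0.04 and 0.53.

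Treated libraries numbered 2 were often the top of their group. Of the 39 members, WT treated 2 was the highest of the 3 treated WT libraries for 24, or 61.5%, beside 35.9% of all tested genes. KO treated 2 was the highest of its group for 22, or 56.4%, beside 27.1% of all tested genes. Number 2 of the untreated groups was the highest for 13 members in WT and 10 in KO. The part of this library number in the responses was not tested beyond the fits that left it out.

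At the pyruvate and lactate branch, the calls in the responses were those of the 2 monocarboxylate transporters and Pdk3. Slc16a1 encodes the monocarboxylate transporter MCT1. It stood at 9.58, 4.87 and 6.13 CPM in untreated and 9.46, 8.72 and 7.01 CPM in treated WT cells, and at 18.4, 13.3 and 14.0 CPM in untreated and 21.6, 29.5 and 24.5 CPM in treated KO cells. In KO the treated libraries all lay above the untreated ones, whereas in WT they overlapped. The KO rise (log2 0.72, SE 0.23, adjusted p = 0.0425) was lost without KO untreated 2, KO untreated 3, KO treated 2, KO treated 3 or WT untreated 3 (adjusted p = 0.144, 0.126, 0.157, 0.0784 and 0.0521). Slc16a3 encodes MCT4, the lactate exporter of strongly glycolytic cells. It stood at 108, 113 and 97.4 CPM in untreated and 70.1, 74.0 and 46.7 CPM in treated WT cells, and at 147, 117 and 107 CPM in untreated and 76.6, 95.7 and 34.1 CPM in treated KO cells. Treated libraries lay below untreated ones in both genotypes. The fall passed with the block alone in WT (log2 -0.76, adjusted p with the block = 0.0365) and in KO (log2 -0.95, adjusted p with the block = 0.0147). Ldha, the lactate dehydrogenase subunit that favours lactate formation, differed by log2 0.19 in WT and 0.29 in KO, and Ldhb, the other subunit, stayed between 1.08 and 3.18 CPM. Of the kinases that hold back pyruvate dehydrogenase, Pdk3 rose in KO with the block alone (log2 0.44, adjusted p with the block = 0.0295), from 27.7, 21.2 and 24.5 CPM to 31.0, 29.8 and 38.7 CPM, and Pdk1 passed in neither response.

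The pentose phosphate genes lay lower after bacteria in every same-numbered WT pair. The 4 members were G6pdx and Pgd, the glucose phosphate and phosphogluconate dehydrogenases that make NADPH, and Taldo1 and Tkt, transaldolase and transketolase, which rearrange the sugars. None passed in either response without the block. G6pdx stood at 117, 169 and 195 CPM in untreated and 76.1, 96.1 and 139 CPM in treated WT cells, and at 91.2, 164 and 159 CPM in untreated and 67.3, 123 and 126 CPM in treated KO cells. Untreated and treated libraries overlapped, since numbers 2 and 3 were above number 1 in all groups, but the treated library was the lower one in each same-numbered pair. With the block it fell in WT (log2 -0.64, adjusted p with the block = 0.000128) and in KO (log2 -0.39, adjusted p with the block = 0.00428). Pgd stood at 333, 519.7 and 553 CPM in untreated and 222, 328 and 423 CPM in treated WT cells, and at 216, 437 and 389.7 CPM in untreated and 176, 403 and 381 CPM in treated KO cells. It fell in WT with the block (log2 -0.54, adjusted p with the block = 0.0006), and in KO, where all 3 pairs were lower too, it did not pass (adjusted p with the block = 0.25). Taldo1 stood at 454, 644 and 666 CPM in untreated and 341, 464 and 459 CPM in treated WT cells, and at 424, 587 and 573 CPM in untreated and 347, 489 and 496 CPM in treated KO cells. With the block it fell in WT (log2 -0.47, adjusted p with the block = 0.000876) and KO (log2 -0.25, adjusted p with the block = 0.0342). Tkt stood at 253, 277 and 289.7 CPM in untreated and 199, 243 and 229 CPM in treated WT cells, and at 294, 311 and 321 CPM in untreated and 241, 312 and 286 CPM in treated KO cells. In WT the treated libraries all lay below the untreated ones, and the gene fell with the block (log2 -0.29, adjusted p with the block = 0.0278), while in KO the adjusted p with the block was 0.237. Thus 4 of 4 passed as falls in WT and 2 of 4 in KO with the block, and the sign was negative for each under TMM, DESeq2, upper-quartile and library-total scaling without the block. Whether the fall differed between genotypes did not pass for any of them (adjusted p of the interaction with the block between 0.331 and 0.814).

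**Figure D4:**
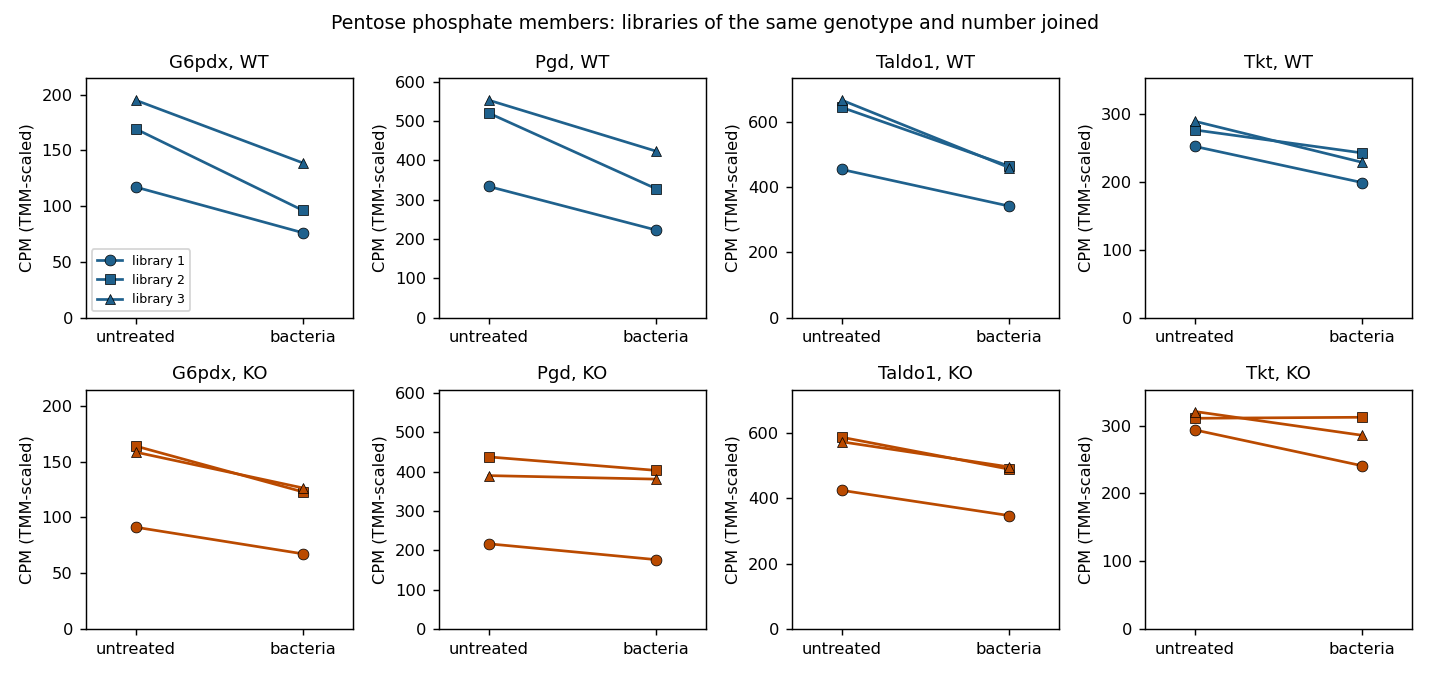
CPM of G6pdx, Pgd, Taldo1 and Tkt in untreated and treated libraries, with a line joining libraries of the same genotype and number. Every WT line runs down for all 4 genes, and library number 1 lies lowest in each group for all 4.

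Of the hypoxia genes, Hif1a and Ndrg1 rose in both genotypes. Hif1a, the oxygen-regulated subunit of HIF-1, stood at 164, 146 and 172 CPM in untreated and 209.8, 308 and 220.4 CPM in treated WT cells, and at 154, 150.1 and 143 CPM in untreated and 205, 202 and 194 CPM in treated KO cells. Treated libraries were above untreated ones in both genotypes, and number 2 was the highest in treated WT. Hif1a rose 1.53-fold in WT (log2 0.62, SE 0.13, adjusted p = 0.00778) and 1.34-fold in KO (log2 0.43, SE 0.13, adjusted p = 0.0374). The WT call was lost without WT untreated 2 (adjusted p = 0.0581) and with library totals (adjusted p = 0.0845), and the KO call held only without WT untreated 2 or any 1 of the treated WT libraries (adjusted p up to 0.117). Ndrg1, a stress gene induced by hypoxia in many cells, stood at 84.8, 90.4 and 114 CPM in untreated and 184, 234 and 221 CPM in treated WT cells, and at 127, 78.5 and 79.2 CPM in untreated and 247, 322 and 226 CPM in treated KO cells. No treated library overlapped an untreated one of its genotype. Ndrg1 rose 2.21-fold in WT (log2 1.14, SE 0.20, adjusted p = 0.00251) and 2.79-fold in KO (log2 1.48, SE 0.21, adjusted p = 0.000301), and both calls held under every alternative run.

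Of the other hypoxia members, Bnip3l fell in KO and Higd1a fell in WT without the block. Bnip3l, a mitophagy receptor also known as NIX, stood at 41.5, 48.7 and 43.7 CPM in untreated and 32.8, 42.4 and 30.5 CPM in treated WT cells, and at 58.2, 64.6 and 78.1 CPM in untreated and 43.0, 44.2 and 50.8 CPM in treated KO cells. All treated KO libraries were below the untreated ones, and in WT the groups overlapped. Bnip3l fell in KO (log2 -0.54, SE 0.15, adjusted p = 0.0186) and, with the block alone, in WT (log2 -0.35, adjusted p with the block = 0.0167), and the KO call was lost without KO untreated 3, KO treated 1 or KO treated 2 (adjusted p = 0.105, 0.0543 and 0.0688). Higd1a, a small mitochondrial protein of the respiratory chain, stood at 11.5, 15.5 and 19.0 CPM in untreated and 10.8, 8.08 and 9.48 CPM in treated WT cells, and at 12.7, 15.0 and 14.1 CPM in untreated and 13.8, 13.7 and 12.7 CPM in treated KO cells. It was lower in every treated WT library than in every untreated one and nearly level in KO. It fell in WT (log2 -0.70, SE 0.19, adjusted p = 0.0213), a call lost without WT untreated 2, WT untreated 3, WT treated 2 or WT treated 3 (adjusted p = 0.0551, 0.082, 0.0744 and 0.05), and in KO its log2 difference was -0.06. Ankrd37, a HIF target that is scarce here, stood at 0.160, 0.461 and 0.170 CPM in untreated and 1.13, 1.57 and 0.237 CPM in treated WT cells, and at 0.167, 0.209 and 0.190 CPM in untreated and 0.539, 2.03 and 0.491 CPM in treated KO cells. It rose in KO with the block alone (log2 2.19, adjusted p with the block = 0.0282), and the WT difference was log2 1.84 (adjusted p = 0.125). Vegfa (the vascular growth factor), Bnip3 (a relative of Bnip3l) and Egln1 (the main HIF prolyl hydroxylase) passed in neither response, with log2 differences between -0.47 and 0.20.

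Between genotypes, the called members included a hexokinase, lactate genes and a prolyl hydroxylase. In untreated cells 6 of 39 were higher and 2 lower in KO, 20.5% of the members beside 13.0% of all tested genes (9.50% higher and 3.46% lower). After bacteria 6 were higher and 2 lower, again 20.5%, beside 14.1% of all genes (9.21% higher and 4.89% lower). The median KO minus WT difference of the members was -0.03 untreated and 0.18 treated on the log2 scale, beside 0.01 and -0.01 for all tested genes. KO and WT libraries did not overlap for 16 members untreated (13 above and 3 below, beside 37.4%, 21.0% and 16.4% of all tested genes) and for 10 treated (8 above and 2 below, beside 28.8%, 15.6% and 13.2%). Hk3, Ldha, Slc16a1 and Egln3 were higher and Eno2 was lower in both states. Without the libraries numbered 1, 6 members were higher and 3 lower untreated, beside 1378 and 682 of 14605 tested genes. Treated, 5 were higher and 2 lower, beside 1671 and 1088.

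Markers of other cells differed between the genotypes in the same libraries. The summed level of 8 erythroid markers was 2.87 to 10.3 CPM in untreated and 3.32 to 10.3 CPM in treated WT cells, and 1892 to 4038 and 1903 to 5207 CPM in untreated and treated KO cells, with 8 of 8 higher in KO in both states. Neutrophil markers summed to 13.6 to 16.6 and 17.2 to 22.3 CPM in WT and 119 to 875 and 169 to 1214 CPM in KO, with 9 of 9 higher untreated and 8 of 9 treated. Red pulp macrophage markers summed to 525 to 986 and 355 to 661 CPM in WT and 1089 to 3387 and 1009 to 3515 CPM in KO, with 7 of 9 and 8 of 9 higher. Of 8 monocyte markers 4 were higher and 1 lower in KO in both states, and no marker of these 4 lists was at 0 throughout a group. The part of these cells in the genotype differences of the glycolysis and hypoxia genes was not tested. In such bulk samples fewer cells of a type and less RNA per cell cannot be told apart.

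Hk3 lay above WT in every KO library of the same treatment. It was 2.73-fold higher in untreated KO cells (log2 1.45, SE 0.32, adjusted p = 0.0109) and 4.06-fold higher after bacteria (log2 2.02, SE 0.32, adjusted p = 0.00219), and the treated difference held under every alternative run. The untreated call was lost without WT untreated 3 or KO untreated 3 (adjusted p = 0.0699 and 0.0571). Slc16a1 was also above WT in all KO libraries, 2.22-fold untreated (log2 1.15, SE 0.24, adjusted p = 0.00831) and 3.00-fold treated (log2 1.59, SE 0.24, adjusted p = 0.00171). The treated difference held under every alternative run, and the untreated one was lost without WT untreated 3 (adjusted p = 0.0564). Ldha stood at 234, 244 and 222 CPM in untreated and 250.0, 321 and 226 CPM in treated WT cells, and at 334, 357 and 444 CPM in untreated and 351, 515 and 521 CPM in treated KO cells. No KO library overlapped WT ones of the same treatment, and Ldha was higher by log2 0.70 untreated (SE 0.17, adjusted p = 0.0197) and 0.80 treated (SE 0.17, adjusted p = 0.0104). Leaving out WT treated 3 ended the treated call of Ldha (adjusted p = 0.0513), and leaving out any untreated library but KO untreated 1 ended the untreated one (adjusted p up to 0.126).

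Pdk1, which holds back pyruvate dehydrogenase and is a textbook HIF target, stood at 4.15, 3.95 and 4.03 CPM in untreated and 3.04, 4.07 and 1.85 CPM in treated WT cells, and at 6.41, 6.95 and 8.87 CPM in untreated and 6.29, 12.1 and 14.0 CPM in treated KO cells. KO libraries lay above WT ones in both states. It was 3.63-fold higher in KO after bacteria (log2 1.86, SE 0.33, adjusted p = 0.00352), a call that held under every alternative run, and untreated the difference did not pass (log2 0.87, SE 0.32, adjusted p = 0.095). Pfkm was low throughout, at 0.798, 0.718 and 1.02 CPM in untreated and 0.989, 0.639 and 0.569 CPM in treated WT cells, and at 2.29, 1.62 and 0.948 CPM in untreated and 2.88, 3.48 and 1.19 CPM in treated KO cells. It was higher in treated KO cells (log2 1.79, SE 0.48, adjusted p = 0.0269), where the groups did not overlap, but the call was lost without WT treated 2, WT treated 3 or KO treated 2 (adjusted p = 0.0756, 0.0964 and 0.113).

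The 2 enolase genes differed in opposite directions. Eno1 stood at 121, 116 and 123 CPM in untreated and 159, 229 and 130.4 CPM in treated WT cells, and at 182, 246 and 290.0 CPM in untreated and 186, 327 and 224 CPM in treated KO cells. It was higher in untreated KO cells (log2 1.00, SE 0.24, adjusted p = 0.0178), a call lost without any untreated library but KO untreated 1 (adjusted p up to 0.101), and treated the groups overlapped (log2 0.51, SE 0.24, adjusted p = 0.176). Eno2 stood at 95.1, 95.4 and 131 CPM in untreated and 125, 111 and 146 CPM in treated WT cells, and at 61.1, 65.2 and 47.0 CPM in untreated and 81.0, 65.2 and 42.4 CPM in treated KO cells. KO libraries lay below all WT ones, by log2 -0.89 untreated (SE 0.22, adjusted p = 0.0203) and -1.01 treated (SE 0.22, adjusted p = 0.0111). The treated difference held under every alternative run, and the untreated one was lost without WT untreated 3 or KO untreated 3 (adjusted p = 0.0808 and 0.081). Pfkfb3 was lower in untreated KO cells (log2 -0.56, SE 0.17, adjusted p = 0.0475), which was lost without WT untreated 1, WT untreated 3, KO untreated 2, KO untreated 3, WT treated 3 or KO treated 2 (adjusted p up to 0.16). Gapdh was lower in treated KO cells (log2 -1.35, SE 0.41, adjusted p = 0.0493), although the groups overlapped. That call held only without WT treated 1 or WT treated 2, and without WT treated 3 the adjusted p was 0.213.

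Egln3, the prolyl hydroxylase PHD3 and itself a HIF target, showed the widest gap between genotypes of the 39. It stood at 1.38, 0.667 and 0.851 CPM in untreated and 1.70, 1.34 and 1.28 CPM in treated WT cells, and at 6.24, 14.7 and 30.5 CPM in untreated and 4.01, 13.2 and 16.6 CPM in treated KO cells. All WT libraries were below 2 CPM and all KO ones above 4 CPM, and within KO number 1 was the lowest and number 3 the highest in both states. Egln3 was 17.7-fold higher in untreated KO cells (log2 4.14, SE 0.65, adjusted p = 0.00201), which held under every alternative run, and 7.86-fold higher after bacteria (log2 2.97, SE 0.62, adjusted p = 0.00884), which limma-voom did not call (adjusted p = 0.0815). With the block Egln3 fell after bacteria in KO (log2 -0.55, adjusted p with the block = 0.0378). Bnip3l was higher in untreated KO cells (log2 0.58, SE 0.15, adjusted p = 0.0206) without overlap, a call lost without any untreated library but KO untreated 1 (adjusted p up to 0.152), and after bacteria the difference did not pass (log2 0.38, SE 0.15, adjusted p = 0.102). Tpi1 lay above WT in every untreated KO library and just missed the threshold (log2 0.97, SE 0.30, adjusted p = 0.0558).

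**Figure D5:**
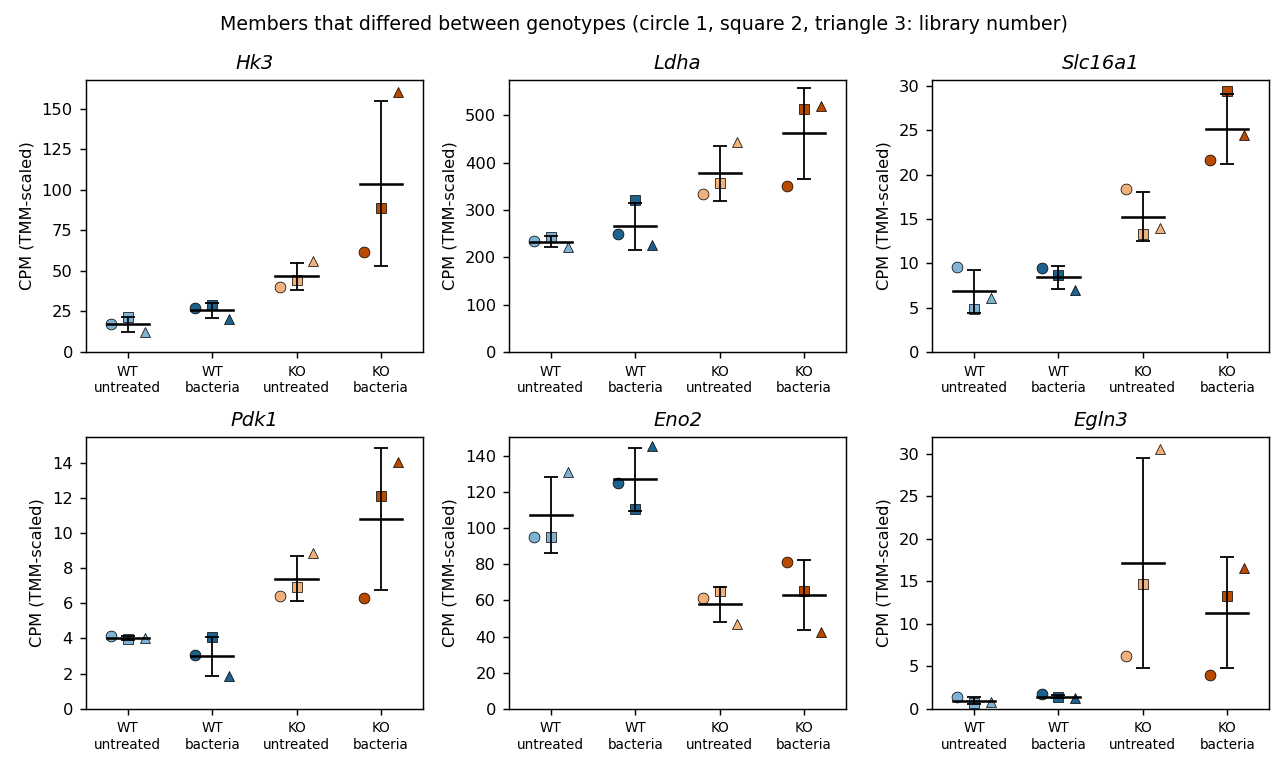
CPM in each library, on axes from 0, of 6 members called between genotypes, by group, with a point per library (its shape gives the number), a line at the group mean and a bar for the SD. Hk3, Slc16a1, Ldha, Pdk1 and Egln3 lie higher and Eno2 lower in KO without overlap within a treatment.

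No member's response differed between the genotypes past the threshold, and neither did any other gene with edgeR (0 of 39 and 0% of 14293). At an unadjusted p below 0.05 there were 3 members, Pfkfb4, Pdk1 and Higd1a, and 608 genes. DESeq2 called 7 genes and no member, and limma-voom called 0. With the block, edgeR called 41 genes (0.287%, with 0.147% up and 0.140% down) and no member. At an unadjusted p below 0.05 that fit had 9 of 39 members, beside 1319 of 14293 genes. The KO minus WT response was -0.52 for Pfkfb4 (SE 0.22), 0.99 for Pdk1 (SE 0.45) and 0.64 for Higd1a (SE 0.26) on the log2 scale. It was 0.77 for Hk2 (SE 0.40), 0.45 for Slc2a6 (SE 0.37) and 0.34 for Pfkfb3 (SE 0.24) on the same scale, and none passed. The members called in 1 genotype only (Gapdh and Higd1a in WT, and Slc2a1, Hk3, Pfkfb4, Slc16a1 and Bnip3l in KO) were thus not shown to differ in response. The median over the 39 was 0.22, beside -0.03 over all tested genes.

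Genes of the wider pathway were read in 6 lists, each given with its share of genes called, to be read beside 18.7% of all tested genes in the WT response and 23.0% in the KO response. Of 20 tested genes of other glycolysis isoforms and enzymes, 1 fell and 0 rose in WT (5%), and 2 rose and 2 fell in KO (20%), with a median log2 change of -0.27 in both. Pck2, the mitochondrial phosphoenolpyruvate carboxykinase, fell in WT (log2 -0.79, SE 0.24, adjusted p = 0.0404). Hk1 (hexokinase I) rose in KO (log2 0.72, SE 0.18, adjusted p = 0.0112), as did Minpp1, an inositol phosphate phosphatase (log2 1.64, SE 0.30, adjusted p = 0.00216), while Pgm2 and G6pc3 fell by 0.67 and 0.61 on the log2 scale (adjusted p = 0.0436 and 0.0354). Of 22 genes of pyruvate fate and lactate export, 1 rose and 3 fell in each genotype (18.2%). Gpd2, the mitochondrial glycerol phosphate dehydrogenase that passes cytosolic electrons to the respiratory chain, stood at 198, 166 and 162 CPM in untreated and 358, 335 and 297 CPM in treated WT cells, and at 201, 156 and 184 CPM in untreated and 325, 346 and 350.2 CPM in treated KO cells. Treated libraries were all well above untreated ones, and the rise was 1.88-fold in WT (adjusted p = 0.000301) and 1.89-fold in KO (adjusted p = 0.0002). Pdpr, the regulatory subunit of the phosphatase that reactivates pyruvate dehydrogenase, fell in both (log2 -0.68, SE 0.11, adjusted p = 0.00109 in WT and log2 -0.87, SE 0.11, adjusted p = 0.00012 in KO). Mpc2, a subunit of the mitochondrial pyruvate carrier, and Pdp1, a pyruvate dehydrogenase phosphatase, fell in WT (log2 -0.36 and -0.79), and Me2 and Pdk2 fell in KO (log2 -0.36 and -1.53).

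Of 15 other pentose phosphate and NADPH genes, 1 rose and 1 fell in WT (13.3%), and 2 rose and 3 fell in KO (33.3%). Rpe, the epimerase of ribulose phosphate, rose (log2 0.70, SE 0.16, adjusted p = 0.00879 in WT and log2 0.64, SE 0.16, adjusted p = 0.0107 in KO), and Rpia, the isomerase that gives ribose phosphate, fell (log2 -0.55, SE 0.18, adjusted p = 0.0495 in WT and log2 -0.54, SE 0.18, adjusted p = 0.0452 in KO). The calls of Rpia were lost under 13 of 23 alternatives in WT and 15 of 23 in KO, DESeq2 size factors among them (adjusted p up to 0.178 and 0.166). In KO, Txnrd1 (thioredoxin reductase) rose by log2 0.63 and Idh1 and Shpk fell by 0.86 and 2.04 (adjusted p = 0.0191, 0.0327 and 0.00907). The KO libraries of Idh1 overlapped, and its call was lost under 5 alternatives. Shpk was scarce, with means of 1.82 CPM in untreated and 0.439 CPM in treated KO cells. Shpk, sedoheptulokinase, is a known brake on inflammatory activation of mouse macrophages.

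Among 16 HIF subunits and regulators, 3 rose and 1 fell in each genotype (25%). Cited2, which competes with HIF-1α for the coactivators p300 and CBP, stood at 37.5, 43.8 and 45.3 CPM in untreated and 192, 265 and 258 CPM in treated WT cells, and at 31.2, 45.6 and 42.1 CPM in untreated and 159, 331 and 322 CPM in treated KO cells. No treated library came near an untreated one, and the rise was 5.64-fold in WT (log2 2.50, SE 0.26, adjusted p = 5.75e-05) and 6.83-fold in KO (log2 2.77, SE 0.26, adjusted p = 1.99e-05). Vhl, the substrate receptor that sends HIF-1α for destruction, stood at 63.3, 96.1 and 69.6 CPM in untreated and 28.9, 44.5 and 32.9 CPM in treated WT cells, and at 58.5, 49.8 and 52.0 CPM in untreated and 30.5, 29.4 and 28.2 CPM in treated KO cells. Treated libraries were below untreated ones in both genotypes, and Vhl fell 2.15-fold in WT (log2 -1.11, SE 0.18, adjusted p = 0.00116) and 1.82-fold in KO (log2 -0.86, SE 0.18, adjusted p = 0.00411). Eloc, elongin C of the same ligase, rose by log2 0.64 and 0.71 (adjusted p = 0.0126 and 0.00575), and the ubiquitin ligases Siah1a in WT and Siah2 in KO rose by 0.48 and 1.02 (adjusted p = 0.0299 and 0.0379).

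Of 30 other hypoxia targets, 4 rose and 2 fell in WT (20%) and 3 rose and 2 fell in KO (16.7%), with a median of -0.04 and 0.04. Adm, adrenomedullin, stood at 4.26, 3.54 and 6.81 CPM in untreated and 14.6, 24.3 and 21.2 CPM in treated WT cells, and at 3.62, 2.45 and 2.80 CPM in untreated and 10.1, 22.6 and 14.4 CPM in treated KO cells, without overlap. It rose 4.12-fold in WT (log2 2.04, SE 0.33, adjusted p = 0.00125) and 5.31-fold in KO (log2 2.41, SE 0.34, adjusted p = 0.000325). Mxi1 and Ddit4 rose in WT (log2 0.74 and 1.28), and Ero1l and Rsbn1 rose in KO (log2 0.59 and 0.98). Treated and untreated WT libraries of Ddit4 overlapped. The calls of Mxi1, Ddit4 and Ero1l were lost under 6, 6 and 7 alternatives (adjusted p up to 0.163, 0.14 and 0.226). The demethylase gene Kdm4b fell in both (log2 -0.39 and -0.45) and Jmjd6 in WT (log2 -0.57). Those of Kdm4b were lost under 8 alternatives in WT and 4 in KO.

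Of 22 upstream kinases and factors, 5 rose and 3 fell in WT (36.4%) and 8 rose and 4 fell in KO (54.5%). Tbk1, the kinase named above, stood at 98.9, 105 and 93.7 CPM in untreated and 138, 174 and 143 CPM in treated WT cells, and at 78.4, 88.1 and 87.1 CPM in untreated and 134, 150.0 and 165 CPM in treated KO cells. It rose in both genotypes without overlap (log2 0.61, SE 0.12, adjusted p = 0.00344 in WT and log2 0.82, SE 0.12, adjusted p = 0.000321 in KO). Its relative Ikbke (IKKε) rose too, by log2 1.80 and 1.31 (adjusted p = 0.0239 and 0.0412), but its treated and untreated KO libraries overlapped. These calls of Ikbke were lost under 5 alternatives in WT and 9 in KO. Nfe2l2 (the antioxidant factor NRF2) and Irf4 also rose in both, by log2 0.37 and 1.76 in WT and 0.66 and 1.90 in KO. The WT call of Nfe2l2 was lost under 14 of 23 alternatives, and with library totals its log2 change was 0.05 (adjusted p = 0.725). Txnip, which restrains glucose uptake, stood at 106, 103 and 106 CPM in untreated and 65.8, 40.9 and 84.6 CPM in treated WT cells, and at 116, 113 and 137 CPM in untreated and 52.1, 41.2 and 54.6 CPM in treated KO cells. It fell in both (log2 -0.72, SE 0.21, adjusted p = 0.0312 in WT and log2 -1.31, SE 0.21, adjusted p = 0.00087 in KO), as did Pik3cg, a PI3 kinase catalytic subunit (log2 -0.70 and -0.75). The WT call of Txnip was lost under 7 of 23 alternatives (adjusted p up to 0.133), and its KO call held under all. Sirt1 rose in KO (log2 0.53). Over all 6 lists, 21 of the 54 calls picked by the naming rule held under every alternative run, and the KO calls of Pgm2 and Siah2 were each lost under 12 of 23.

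Between genotypes, 3 genes of these lists are given that were chosen after their values were seen. Within their own lists, Ikbke and Pklr showed the steepest rise in KO in both states. Over all 6 lists the steepest differences lay in the list of other hypoxia targets. Bpgm, the bisphosphoglycerate mutase of red cells, stood at 2.34, 2.97 and 3.18 CPM in untreated and 2.75, 2.91 and 1.18 CPM in treated WT cells, and at 33.3, 34.1 and 70.5 CPM in untreated and 29.5, 41.9 and 78.7 CPM in treated KO cells, and was 16.2-fold higher in untreated KO cells (log2 4.02, SE 0.45, adjusted p = 0.000405) and 22.3-fold higher after bacteria (log2 4.48, SE 0.47, adjusted p = 0.000305). Pklr, the pyruvate kinase of liver and red cells, was at 0 counts in all untreated WT libraries and at 0.836, 1.83 and 0.237 CPM in untreated KO ones. Ikbke was 16.1-fold higher in untreated KO cells (log2 4.01, SE 0.49, adjusted p = 0.000624) and 11.4-fold higher after bacteria (log2 3.51, SE 0.46, adjusted p = 0.000801), at 3.83, 1.18 and 2.16 CPM in untreated and 8.12, 9.41 and 7.44 CPM in treated WT cells, and at 20.5, 42.2 and 52.5 CPM in untreated and 48.9, 95.4 and 141 CPM in treated KO cells. The markers of red cells, neutrophils and macrophages given above were higher in the same KO libraries, and their part in these differences was not tested.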

How the data were processed

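RNA of 12 libraries, in 4 groups of 3 taken from the sample titles, was sequenced as paired reads after random priming, per the labels' protocols. The authors deposited raw counts per gene, made, per the submitters' processing notes, with CASAVA 1.8 and HISAT2 (no version stated) on mm10. How reads were counted, with which strand setting and annotation, is not given in the sources used here. Libraries held 15693172 to 24074596 counts.

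Members and lists were chosen with earlier results of these data known. Genes were kept by filterByExpr, scaled by TMM and fitted with edgeR 4.0.16 (R 4.3.3, quasi-likelihood, robust), with a term per group over all 12 libraries and Benjamini-Hochberg adjustment over 14293 genes at 0.05. Every adjusted p in the text is edgeR's unless another tool is named. SE is the absolute log2 change over the square root of F. CPM are TMM-scaled counts, and CPM per kilobase used the deposited gene length. Values in each library are given for members called in any comparison and for a fixed few, and at most 8 called genes of each wider list are named, except 2 genes that are not reported here. Untreated and treated libraries sharing a genotype and a number had correlated deviations from their group means (r between 0.226 and 0.53, 6 pairs), so the number was used as a block within genotype; the labels do not state this pairing. Alternatives were other scalings and filters, DESeq2 1.42.0, limma-voom (limma 3.58.1), only the groups compared, blocks, the libraries numbered 1 left out and each library left out. The fit was run on simulated counts drawn independently for each library, with no effect of the library number. That run therefore does not check the correlation of same-numbered libraries. Shared 50-base windows were searched in GENCODE vM21 transcripts, and promoters came from RefSeq (GRCm38.p6), where 36 of 39 members had an entry. Figures used matplotlib 3.10.9 and Python 3.11.15.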

Additional observations from a re-analysis of the deposited data

Results flagged for a closer look

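The response to bacteria of Minpp1, of the wider glycolysis list, differed between the genotypes in the fit with the replicate block within genotype. With the number as a block across all groups, the interaction called 0 of 14293 genes, so Minpp1 did not pass there. Minpp1 stood at 13.2, 12.5 and 12.3 CPM in untreated and 9.96, 8.72 and 12.4 CPM in treated WT cells, and at 16.4, 20.3 and 24.9 CPM in untreated and 32.7, 67.3 and 92.2 CPM in treated KO cells. Its KO minus WT response was 1.84 on the log2 scale with the block (edgeR, adjusted p = 0.00381) and 1.92 without it (adjusted p = 1).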

How the results depend on the processing

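The block within genotype moved the members called from 8 to 17 in the WT response and from 11 to 17 in the KO response. It changed no other count of members by over 1.5 times, and the calls of single genes it changed are given above. A block on the number across all groups called 13 members in the WT response. Of these 6 rose and 7 fell, beside 1923 and 1624 of 14293 genes. Between genotypes it gave 7 higher and 4 lower untreated, beside 1735 and 849 of all genes. Treated, it gave 8 higher and 1 lower, beside 1748 and 1194. Same-treatment libraries with the same number correlated across genotypes with r from 0.0787 to 0.323, a range that overlaps the 0.226 to 0.53 within genotype. Across genotypes the highest values, 0.323 untreated and 0.314 treated, were those of number 1. Libraries of unlike number were not compared, so r does not settle which block is right, and counts with both are given. With limma-voom the treated genotype comparison called 5 members in place of 8. Leaving out 1 library at a time gave 2 to 7 called members in the WT response, 6 to 12 in the KO response, 1 to 10 between genotypes untreated, 5 to 11 treated and 0 in the interaction. The WT count was 2 without WT untreated 2, 4 without WT untreated 3 or WT treated 3, and 5 without KO treated 1 or KO untreated 2. The KO count was 6 without KO untreated 2 or KO untreated 3, and 7 without KO untreated 1 or WT untreated 3. The untreated genotype count was 1 without WT untreated 3, 2 without KO untreated 3, 4 without KO untreated 2, and 5 without WT untreated 1 or WT untreated 2. The treated genotype count was 5 without WT treated 3. The cause of these shifts was not tested. Library totals as the only scaling ended the WT calls of Slc2a6, Pfkp, Gapdh and Hif1a, the KO calls of Slc2a1, Slc16a1 and Hif1a, the untreated genotype call of Pfkfb3 and the treated one of Gapdh. Without a filter on low counts those of Slc2a6 and Gapdh in WT, Slc2a1, Hk3 and Pfkfb4 in KO, Hk3 and Eno1 untreated and Gapdh treated were lost. Of 35 calls of single members, 12 held under every alternative, and no direction turned in 2028 single-gene values, of which 364 missed the threshold. Genes at a few CPM (Pfkm, Ankrd37, Ldhb, Bnip3, Egln3 in WT) have the least depth behind their values.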
